A study of Homo sapiens with 36 samples.

Results

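Prostaglandins are local lipid mediators that lung epithelial and cancer cells make from arachidonic acid. The 9 genes described here cover that route in order: PLA2G4A releases arachidonic acid from membranes, PTGS1 and PTGS2 (COX-1 and COX-2) oxidise it to PGH2, the synthases PTGES, PTGES2 and PTGES3 turn PGH2 into PGE2, HPGD inactivates PGE2, and PTGER2 and PTGER4 are receptors for it. PTGS2 is the inducible cyclooxygenase and is known as an early target of IL-1β and other inflammatory cytokines, whereas PTGS1 is usually regarded as the constitutive form. The genes were chosen by name as the members of this pathway, and each matched 1 of the 63677 Ensembl genes in the count tables. All 9 had enough reads to be tested.

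RNA came from A549 cells, an established human lung adenocarcinoma line, grown in RPMI with 10% serum. Exposed cells received IL-1β at 1 ng/ml and were sampled after 6, 15 and 21 days of exposure, and again 6, 15 and 30 days after the cytokine was withdrawn on day 21. Untreated control cells were collected at each of the 6 time points. With 3 replicates in each of the 12 groups there were 36 libraries, and as the labels call the replicates biological without naming separate cultures, the p-values measure only the spread between these libraries. All findings are from 1 cell line and from RNA alone, and in bulk RNA fewer cells expressing a gene and less RNA per cell cannot be told apart.

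Total counts on genes ranged from 9116032 to 23570026 per library, so that 3 counts were worth 0.119 to 0.387 CPM. Of the 36 libraries, 11 (6 control, 5 IL-1β) carried 11.8% to 24.6% of their counts on mitochondrial genes and the other 25 carried 5.61% to 7.75%. Some results are given with and without these 11 libraries, and others only with them. The 11 include control replicates 1 and 2 at day 6 after withdrawal, control replicates 2 and 3 at day 15 after withdrawal, and exposed replicate 2 at both times. Leaving them out keeps only control replicate 3 at day 6 and only control replicate 1 at day 15 after withdrawal. The keratins KRT8 and KRT18 marked the cells as epithelial (538 to 4818 CPM and 265 to 2514 CPM), while EPCAM stayed at 0.232 to 1.63 CPM and KRT19 was at 0 in 16 libraries. CD3E was at 0 in all 36 libraries. The summed levels were 2.06 to 16.9 CPM for the leukocyte markers, most of it CD14, 0 to 0.348 CPM for the 2 endothelial markers found, and 1.08 to 4.09 CPM for the 4 fibroblast markers, and their part in the results was not tested. The 5 cytokine-responsive genes CXCL8, CCL2, ICAM1, NFKBIA and TNFAIP3 summed to 307 to 530 CPM during exposure against 42.9 to 55.5 CPM in the matching controls, and to 56.0 to 104 CPM after withdrawal against 33.1 to 65.8 CPM.

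The promoters of the 2 cyclooxygenase genes are shown because the results turn most on this pair. The 250 bases before the RefSeq start site of each gene, found once in GRCh37, are shown 5′ to 3′ on the gene's strand (PTGS2 on the minus strand at chr1:186649556-186649805, PTGS1 on the plus strand at chr9:125137331-125137580). Capitals mark matches to 5 motifs searched on both strands, which were a kappaB-type motif (GGGNN followed directly by TNNCC), an AP-1 motif (TGANTCA), a cAMP-response-type motif (CGTCA), a C/EBP-type motif (TTNCGNAA) and a TATA box (TATAAA).
PTGS2: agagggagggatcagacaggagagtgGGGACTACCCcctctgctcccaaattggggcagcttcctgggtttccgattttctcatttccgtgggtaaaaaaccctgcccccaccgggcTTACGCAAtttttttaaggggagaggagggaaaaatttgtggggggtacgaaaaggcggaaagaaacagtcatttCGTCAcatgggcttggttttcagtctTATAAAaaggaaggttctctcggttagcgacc
PTGS1: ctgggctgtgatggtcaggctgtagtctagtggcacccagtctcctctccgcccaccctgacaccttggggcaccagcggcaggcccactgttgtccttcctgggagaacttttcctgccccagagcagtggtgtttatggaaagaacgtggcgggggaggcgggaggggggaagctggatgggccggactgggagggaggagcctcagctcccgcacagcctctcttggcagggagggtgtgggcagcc
In the PTGS2 window the kappaB-type match lay at bases -224 to -215 from the start site, the C/EBP-type match at -133 to -126, the cAMP-response-type match at -58 to -54 and the TATA box at -32 to -27. The C/EBP-type motif is its own reverse complement, so its match counts on both strands. The PTGS1 window held a match to none of the 5 motifs, and no AP-1 match was found in either. Both windows lie inside the GENCODE span of their gene, which begins at base 125132809 for PTGS1 and at base 186650054 for PTGS2. Sequence before these outer starts was not searched, so the lack of matches holds for this PTGS1 window alone. Among 27305 RefSeq promoter windows of the same length, 19.1% held the kappaB-type motif, 6.84% the AP-1 motif, 21.1% the cAMP-response-type motif, 2.17% the C/EBP-type motif and 11.4% the TATA box. Of the other members, PTGES3 and PTGER4 held a kappaB-type match and PTGES3, HPGD and PTGER2 a cAMP-response-type match. These matches describe the letters only, and binding was not tested.

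Levels of the 9 genes were compared per kb of exon, with exon lengths from GENCODE v44lift37. In the control libraries PTGES3, which also acts as the co-chaperone p23, was far above the rest, with a median of 152 CPM per kb (range 110 to 204). PTGES, the inducible microsomal synthase, followed at 23.1 CPM per kb (9.32 to 31.3), then HPGD at 14.1 (10.5 to 19.6) and PTGES2 at 6.84 (3.30 to 8.34). The control ranges of PTGES and HPGD overlapped, and that of PTGES2 lay below both on this scale. Exon length was the union over all annotated isoforms, 6.08 kb for PTGES2 and 1.89 kb for PTGES. In CPM the control medians of PTGES2 and PTGES were 41.6 (20.1 to 50.7) and 43.6 (17.6 to 59.2), so their gap per kb depends on these lengths. PLA2G4A had a median of 1.54 CPM per kb (0.979 to 2.89). The cyclooxygenases and receptors were the lowest, at medians of 0.717 CPM per kb for PTGS1 (0.289 to 0.907), 0.552 for PTGER4 (0.254 to 0.850), 0.492 for PTGER2 (0.336 to 0.824) and 0.182 for PTGS2 (0.0941 to 0.875), and their ranges overlapped. PTGS2 spread the most between conditions, with a median of 0.869 CPM per kb during exposure and 0.0371 after withdrawal.

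**Figure D1:**
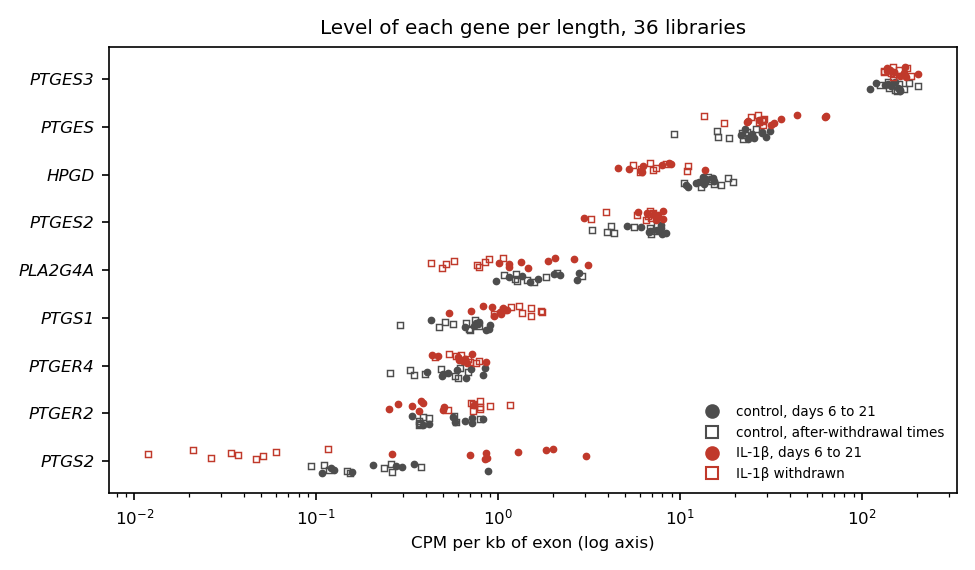
Level of each gene in each of the 36 libraries as CPM per kb of exon on a log axis, with filled circles for the collections at days 6 to 21 and open squares for the collections after withdrawal (grey for untreated control, red for IL-1β). PTGES3 lies between 110 and 204 CPM per kb in the control libraries, and PTGS2 is the gene whose red points spread the most, with a median of 0.869 during exposure and 0.0371 after withdrawal.

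Whether IL-1β changed each gene was asked at each time point with edgeR's quasi-likelihood test on all 36 libraries and 12 groups, with Benjamini-Hochberg adjusted p-values over the 19180 genes tested. A gene was called when its adjusted p was below 0.05 and it changed more than 2-fold. At day 6, 2 of the 9 genes rose (PTGS2 and PTGES), beside 2.77% of all genes called. At day 15, 1 gene rose (PTGS2, background 4.24%), and at day 21, 1 gene fell (HPGD, background 4.26%). After withdrawal HPGD fell at day 6 (1 gene, background 1.8%), no gene was called at day 15 (background 0.954%) and 2 were called at day 30, where PTGS1 rose and PLA2G4A fell (background 0.897%). At day 15 after withdrawal 5 members had an unadjusted p under 0.05 and DESeq2's Wald test called 1, PTGS1. The median log2 fold change of the 9 genes lay between 0.02 and 0.14 at the 6 time points, and that of all genes between -0.02 and 0.02. Neither receptor and neither of PTGES2 and PTGES3 was called at any time point.

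**Figure D2:**
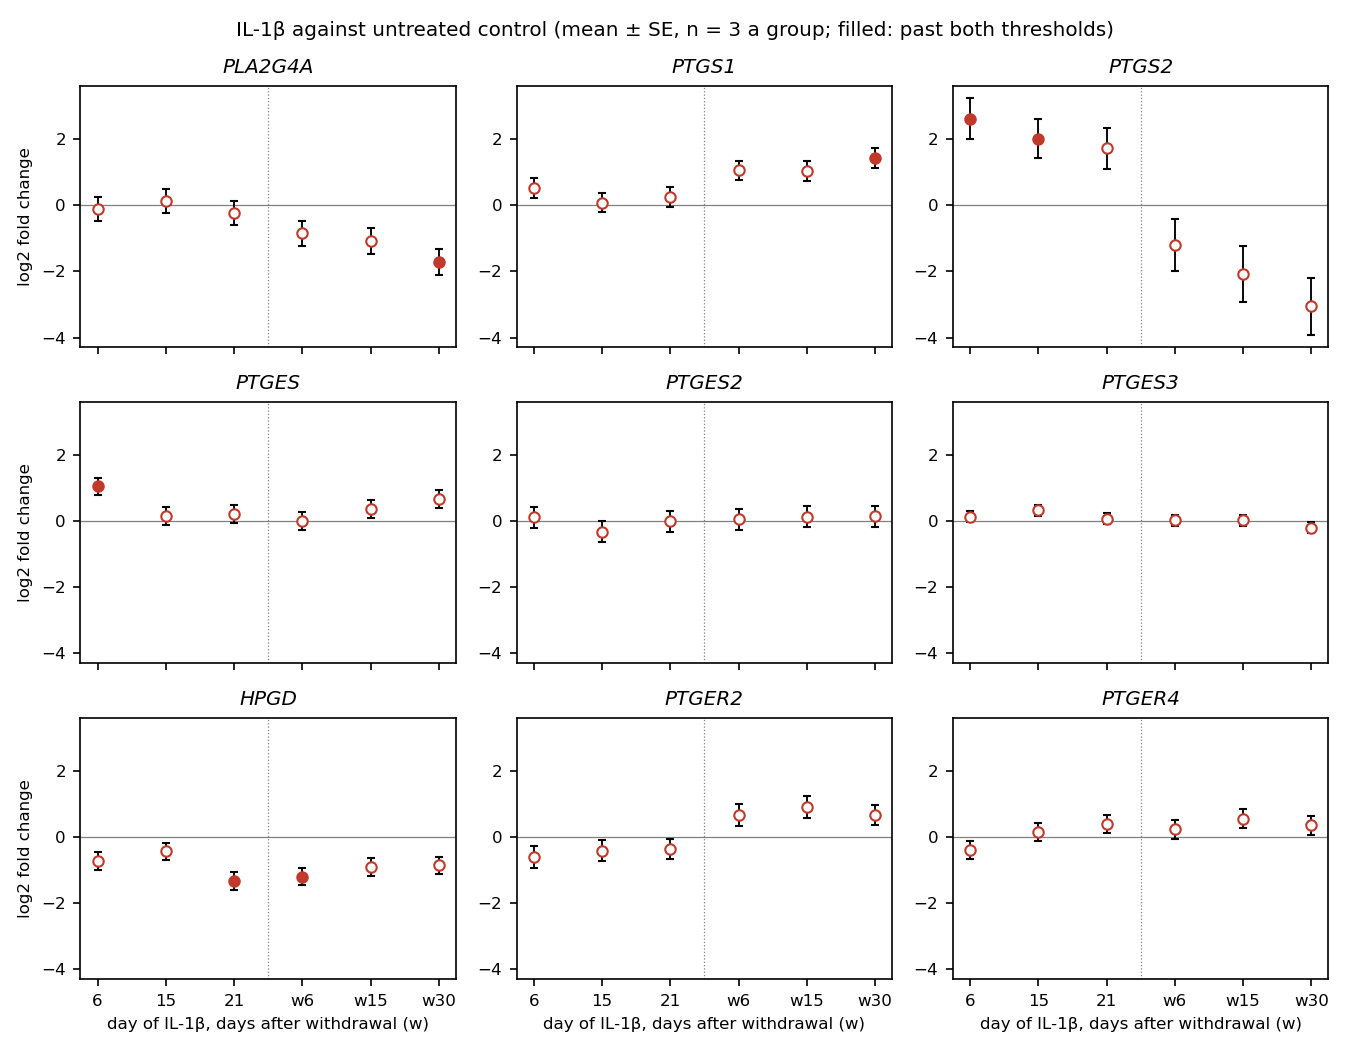
Log2 fold change of IL-1β-exposed over untreated control cells for the 9 genes over the 6 time points (w, days after withdrawal), with standard errors from edgeR and 3 libraries a group. Filled points passed both thresholds, and PTGS2 runs from 2.61 at day 6 of exposure to -3.06 at day 30 after withdrawal while PTGES2 and PTGES3 stay near 0.

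PTGS2 (ENSG00000073756, GRCh37 chr1:186640923-186650054, minus strand) was the member with the largest fold changes, above the control with IL-1β and below it after withdrawal. At day 6 its levels were 7.04, 10.0 and 11.0 CPM in the exposed replicates 1 to 3 and 1.50, 1.13 and 1.89 CPM in the control. The groups did not overlap, which held in either direction for 21.8% of all genes, and PTGS2 rose by a log2 fold change of 2.61 ± 0.61 (SE, n = 3 a group, adjusted p = 0.00872), or 6.12-fold. At day 15 the exposed libraries held 4.66, 4.76 and 16.7 CPM and the control 0.591, 0.867 and 4.80 CPM. Replicate 3 was the highest in both groups, the groups overlapped, and the log2 fold change was 2.01 ± 0.59 (adjusted p = 0.0351). At day 21 the values were 3.86, 1.42 and 4.68 CPM against 0.684, 0.664 and 1.63 CPM. Here the lowest exposed library lay below the highest control, and the log2 fold change of 1.71 ± 0.62 did not pass the test (adjusted p = 0.116).

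The PTGS2 rise at day 15 rested on single libraries. Without exposed replicate 3, which had 15.3% mitochondrial counts, the log2 fold change was 1.15 (adjusted p = 0.422), and without control replicate 3 it was 3.53 (adjusted p = 0.00073). The call was also lost without control replicate 1 (1.59, adjusted p = 0.174) or control replicate 2 (1.65, adjusted p = 0.181), and without all high-mitochondrial libraries (1.13, adjusted p = 0.203). Among single libraries left out, the call at day 6 was lost only without control replicate 2, where the log2 fold change was 2.46 with an adjusted p of 0.0613. It was also lost in the fit without replicate 1 of any group, where no member was called at day 6. At day 21 PTGS2 passed both thresholds without the high-mitochondrial libraries (2.04, adjusted p = 0.0183) and in the fit blocked on replicate number (1.80, adjusted p = 0.00816).

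After withdrawal PTGS2 was near the limit of detection in the previously exposed cells. At day 6 these held 0.328, 0.116 and 0.637 CPM against 0.516, 0.605 and 1.42 CPM in the control, and the groups overlapped. At day 15 they held 0.257, 0.145 and 0.279 CPM against 0.844, 1.43 and 0.813 CPM, and at day 30 0.204, 0.065 and 0.187 CPM against 0.645, 1.29 and 2.07 CPM. At both later times every exposed library lay below every control library, and such a separation, in either direction, held for 10.9% and 11.9% of all genes. The fitted log2 fold changes were -1.22 ± 0.79, -2.08 ± 0.84 and -3.06 ± 0.85 at days 6, 15 and 30, with adjusted p-values of 0.801, 0.382 and 0.0793, so that none was called. At day 30 these values rest on 3, 1 and 4 counts in the exposed libraries, 8 in all against 64 in the control. The ratio of exposed to control per count of library size was 0.113 (95% exact interval 0.0469 to 0.237, counting error only), that is 8.82-fold lower (4.22 to 21.3). In the fit blocked on replicate number, PTGS2 passed both thresholds at day 30 (-3.04, adjusted p = 0.00703), as it did by DESeq2's Wald test (-3.14, adjusted p = 0.00969) and without control replicate 1 (-3.42, adjusted p = 0.0486). The log2 fold change at day 6 after withdrawal was -0.51 without control replicate 3.

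The change of the PTGS2 response itself was tested as the difference between 2 responses. The response at day 30 after withdrawal was below that at day 21 of exposure by a log2 difference of -4.77 ± 1.05 (adjusted p = 0.0209), and PTGS2 was the 1 member called in this comparison, beside 0.626% of all genes. Neither response alone passed the test. The difference was not called without replicate 1 (-5.05, adjusted p = 0.503) or without replicate 2 (-4.62, adjusted p = 0.316). At day 6 after withdrawal the difference from day 21, which uses the same day 21 groups, was -2.93 ± 1.00 (adjusted p = 0.885), and no member was called (background 0.136%, 2 members with an unadjusted p under 0.05, 0 called by DESeq2). Between day 21 and day 6 of exposure the response differed by -0.90 ± 0.86 (adjusted p = 1.00), with 0 members called (background 0.0104%, 1 with an unadjusted p under 0.05, 0 by DESeq2). Between the untreated cells collected last (day 30 after withdrawal) and first (day 6), PTGS2 differed by -0.18 ± 0.65 (adjusted p = 1.00), and 0 members were called there (background 0.0104%, 2 with an unadjusted p under 0.05, 0 by DESeq2).

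PACERR, an RNA transcribed across the PTGS2 start from the opposite strand, overlaps 3.99% of the PTGS2 exons and had 0 to 5 counts in each library, too few to test.

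**Figure D3:**
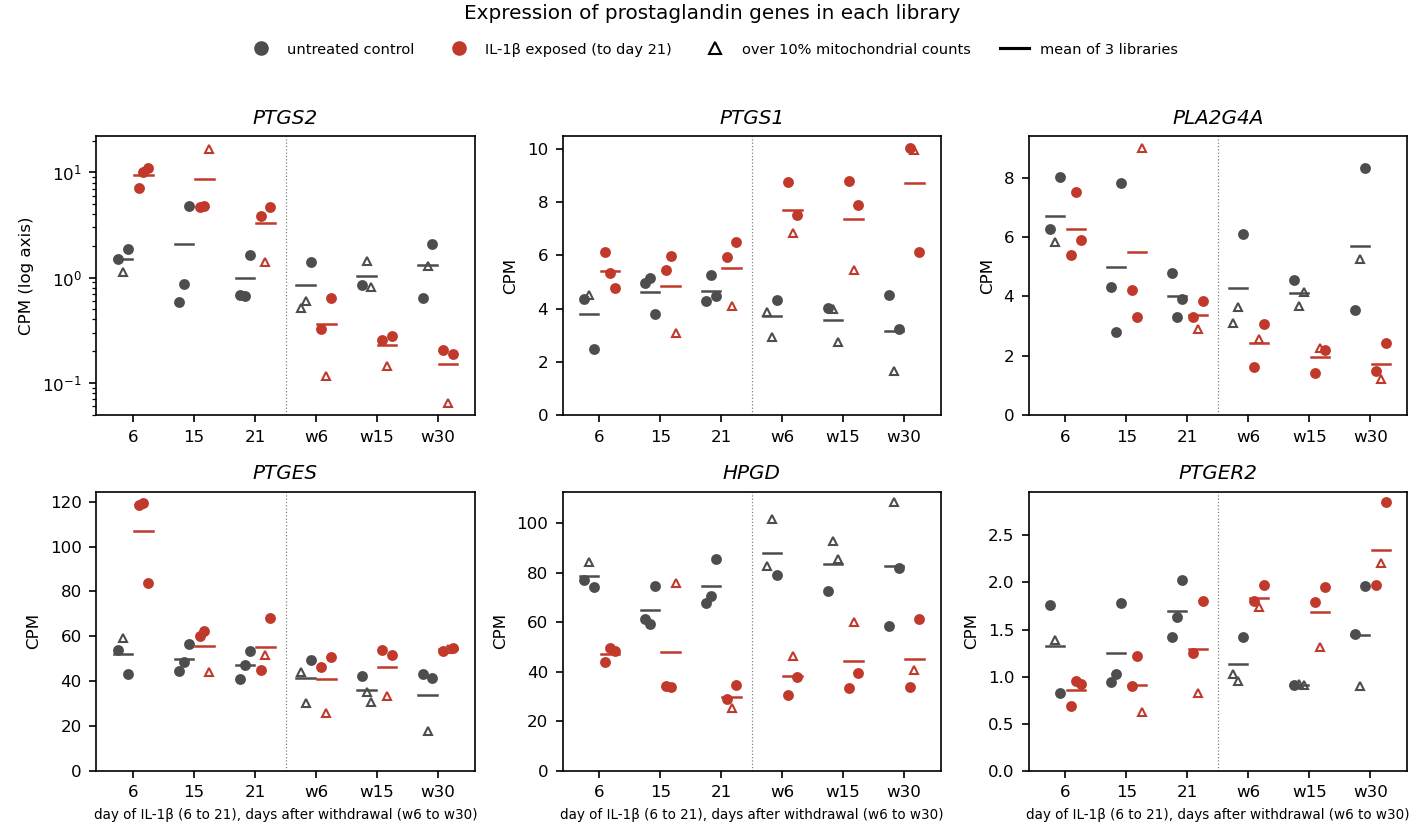
CPM of 6 of the genes in each library (grey, untreated control; red, IL-1β exposed; open triangles, over 10% mitochondrial counts; bars, means of 3), at days 6 to 21 of exposure and 6 to 30 days after withdrawal (w), with a log axis for PTGS2. The exposed PTGS2 libraries of day 6 (7.04 to 11.0 CPM) lie above and those of day 30 after withdrawal (0.065 to 0.204 CPM) below their controls. PTGS1 and PTGER2 lie above the controls at all 3 times after withdrawal, PTGER2 at day 30 only within rounding. Groups did not overlap there for 10.8% to 11.9% of all genes in either direction. PTGER2 was not called at any time, and PTGS1 at day 30 after withdrawal alone.

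PTGS1 (ENSG00000095303, chr9:125132809-125157982, plus strand), the other cyclooxygenase, had its higher values after IL-1β was removed. During exposure its log2 fold changes were 0.52 ± 0.30, 0.08 ± 0.29 and 0.25 ± 0.29 at days 6, 15 and 21, and none passed the test. At day 6 after withdrawal the previously exposed cells held 8.74, 6.84 and 7.53 CPM against 3.87, 2.94 and 4.34 CPM. At day 15 they held 8.79, 5.46 and 7.87 CPM against 4.03, 3.98 and 2.74 CPM, and at day 30 10.0, 9.95 and 6.13 CPM against 4.52, 1.67 and 3.25 CPM. The groups did not overlap at any of the 3 times, where 10.8%, 10.9% and 11.9% of all genes did not overlap in either direction. The log2 fold changes were 1.05 ± 0.30 (adjusted p = 0.0546), 1.04 ± 0.30 (adjusted p = 0.0894) and 1.42 ± 0.30 (adjusted p = 0.00956), and PTGS1 rose at day 30, by 2.68-fold. DESeq2's Wald test also called days 6 and 15 (1.05, adjusted p = 0.0120, and 1.02, adjusted p = 0.0268). The high-mitochondrial controls there were replicates 1 and 2 at day 6 and replicates 2 and 3 at day 15. The call at day 30 was lost without exposed replicate 1 (1.31, adjusted p = 0.0781), exposed replicate 2 (1.32, adjusted p = 0.0742), control replicate 2 (1.16, adjusted p = 0.0649) or control replicate 3 (1.43, adjusted p = 0.0710). It held without the high-mitochondrial libraries (1.05, adjusted p = 0.0428). The day 30 response exceeded that of day 21 by 1.17 ± 0.41, which did not pass the test (adjusted p = 0.359).

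PLA2G4A (ENSG00000116711, chr1:186798081-186958113, plus strand), the cytosolic phospholipase that supplies both cyclooxygenases, lies next to PTGS2 among the members on chromosome 1. Its log2 fold changes during exposure were -0.10 ± 0.36, 0.12 ± 0.37 and -0.24 ± 0.37, and at day 15 the sign turned without the high-mitochondrial libraries (-0.41) and with total counts in place of TMM (-0.01). At day 6 after withdrawal the exposed cells held 1.64, 2.55 and 3.07 CPM and the control 3.09, 3.63 and 6.10 CPM. The values at day 15 were 1.41, 2.25 and 2.19 CPM against 4.55, 3.67 and 4.16 CPM, and those at day 30 were 1.49, 1.24 and 2.43 CPM against 3.55, 5.28 and 8.31 CPM. At each of these times all 3 exposed libraries lay below all 3 controls. Groups did not overlap in either direction for 10.8%, 10.9% and 11.9% of all genes. The log2 fold changes were -0.85 ± 0.39 (adjusted p = 0.429), -1.08 ± 0.39 (adjusted p = 0.263) and -1.72 ± 0.39 (adjusted p = 0.0178), and PLA2G4A fell at day 30, by 3.28-fold. The call was lost without exposed replicate 1 (-1.62, adjusted p = 0.140), exposed replicate 2 (-1.53, adjusted p = 0.170) or control replicate 3 (-1.31, adjusted p = 0.202), and without the high-mitochondrial libraries (-1.56, adjusted p = 0.102). The responses at day 30 and day 21 differed by -1.47 ± 0.53 (adjusted p = 0.402).

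PTGES (ENSG00000148344, chr9:132500610-132515321, minus strand), the microsomal synthase usually induced together with PTGS2, was called at day 6 of exposure alone. Its levels there were 118, 119 and 83.6 CPM against 53.7, 59.2 and 43.1 CPM in the control. The groups did not overlap, which held in either direction for 21.8% of all genes. The mean rose from 52.0 to 107 CPM, a log2 fold change of 1.04 ± 0.27 (adjusted p = 0.0201), close to the fold change of 2 that a call needs. It was not called without control replicate 1 (1.07, adjusted p = 0.0687), exposed replicate 1 (0.96, adjusted p = 0.0871), exposed replicate 2 (0.96, adjusted p = 0.0914) or control replicate 3 (0.92, adjusted p = 0.120), nor with the high mitochondrial share as a covariate (0.88, adjusted p = 0.00743, under 2-fold). At the later times the log2 fold changes were 0.16, 0.22, -0.01, 0.37 and 0.66, the last at day 30 after withdrawal with 53.4, 54.1 and 54.7 CPM against 42.9, 17.6 and 41.3 CPM (adjusted p = 0.410). The 17.6 CPM came from control replicate 2, a high-mitochondrial library. The value at day 6 after withdrawal was 0.09 with total counts in place of TMM. The PTGES response at day 21 minus that at day 6 was -0.82 ± 0.38, which did not pass the test over all genes (unadjusted p = 0.0389, adjusted p = 1.00).

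No change of the other synthases passed the test. PTGES2 (ENSG00000148334, chr9:130882972-130890741, minus strand), a membrane-associated synthase, had log2 fold changes from -0.32 ± 0.32 at day 15 of exposure to 0.14 ± 0.32 at day 30 after withdrawal, and their sign turned under at least 1 alternative at every time point, scaling among them at day 21. PTGES3 (ENSG00000110958, chr12:57057125-57082192, minus strand) ranged from -0.20 ± 0.17 at day 30 after withdrawal to 0.32 ± 0.17 at day 15 of exposure. Its exposed and control libraries overlapped at all 6 time points. The processed pseudogenes PTGES3P3 and PTGES3P1 took 177 to 474 and 73 to 209 counts per library beside 4191 to 12079 for the gene. How far such similar sequences make the PTGES3 counts uncertain was not tested.

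HPGD (ENSG00000164120, chr4:175411326-175444305, minus strand), the dehydrogenase that starts the breakdown of PGE2, had a lower mean in exposed cells at all 6 time points and was called at 2 of them. At day 6 the exposed libraries held 43.9, 49.6 and 48.2 CPM against 77.0, 84.1 and 74.3 CPM (-0.73 ± 0.27, adjusted p = 0.152). The groups did not overlap there (21.8% of all genes in either direction). At day 15 they held 34.3, 33.7 and 75.8 CPM against 61.0, 59.3 and 74.7 CPM. The 75.8 CPM came from exposed replicate 3, the high-mitochondrial library, and the log2 fold change of -0.45 ± 0.26 (adjusted p = 0.412) was -0.93 without the high-mitochondrial libraries (adjusted p = 0.00227, under 2-fold). At day 21 the levels were 29.0, 25.2 and 34.6 CPM against 67.7, 70.4 and 85.3 CPM, so the groups stood well apart (29% of all genes did not overlap in either direction). HPGD fell by 1.33 on the log2 scale (SE 0.27, adjusted p = 0.00140), or 2.51-fold, and the call held when any 1 of the 6 libraries was left out. It was lost in the fit without replicate 1 of any group (-1.37, adjusted p = 0.0610).

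HPGD was still lower after withdrawal. At day 6 the libraries held 30.6, 46.1 and 38.0 CPM against 82.8, 102 and 79.2 CPM, and HPGD fell by 1.20 on the log2 scale (SE 0.27, adjusted p = 0.00869). The call was lost only without exposed replicate 1 (-1.07, adjusted p = 0.0908) among the 6 libraries. At day 15 the values were 33.4, 60.1 and 39.3 CPM against 72.4, 92.8 and 85.5 CPM, and at day 30 33.7, 40.8 and 61.2 CPM against 58.3, 108 and 81.6 CPM. The groups did not overlap at day 15 (10.9% of all genes in either direction) and did at day 30. The log2 fold changes were -0.92 ± 0.27 (adjusted p = 0.0943) and -0.87 ± 0.27 (adjusted p = 0.128). The day 30 value was -0.55 without the high-mitochondrial libraries (adjusted p = 0.292). The response at day 30 after withdrawal was nearer to 0 than that at day 21 by 0.46 ± 0.37, and this did not pass the test (adjusted p = 0.955). An opposite-strand gene overlaps 5.68% of the HPGD exons and had at most 2 counts in a library.

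PTGER2 (ENSG00000125384, chr14:52781023-52795316, plus strand) and PTGER4 (ENSG00000171522, chr5:40680017-40693837, plus strand) encode the EP2 and EP4 receptors, which bind PGE2 and raise cAMP. Both had low counts, 6 to 61 and 7 to 60 per library. PTGER2 had log2 fold changes of -0.62 ± 0.33, -0.42 ± 0.32 and -0.36 ± 0.30 during exposure and of 0.66 ± 0.32, 0.89 ± 0.33 and 0.65 ± 0.30 after withdrawal, with adjusted p-values from 0.298 to 0.829. After withdrawal the exposed and control libraries did not overlap at days 6, 15 and 30, as for 10.8%, 10.9% and 11.9% of all genes in either direction. At day 6 PTGER2 stood at 1.80, 1.74 and 1.97 CPM against 1.03, 0.950 and 1.42 CPM in the control, and at day 15 at 1.80, 1.31 and 1.96 CPM against 0.909, 0.918 and 0.914 CPM. At day 30 it stood at 1.97, 2.21 and 2.85 CPM against 1.45, 0.901 and 1.97 CPM, where the lowest exposed and the highest control library were within rounding of each other. The PTGER2 response at day 30 after withdrawal exceeded that at day 21 by 1.01 ± 0.43, with an unadjusted p of 0.0244 and an adjusted p of 0.644. PTGER4 ranged from -0.40 ± 0.28 at day 6 of exposure to 0.55 ± 0.28 at day 15 after withdrawal, and its lowest adjusted p was 0.633.

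Across the 9 genes, groups without overlap were 3 higher and 1 lower at day 6 of exposure (21.8% of all genes in either direction), 0 at day 15 (25.4%) and 1 higher and 1 lower at day 21 (29%). After withdrawal they were 2 higher and 2 lower at day 6 (10.8%), 3 higher and 3 lower at day 15 (10.9%), and 3 higher and 2 lower at day 30 (11.9%).

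As a description over the 12 group means of log2 CPM, which share their libraries and time points, PTGS2 and PTGER2 ran in opposite directions (Pearson r = -0.83), as did PTGS1 and PLA2G4A (r = -0.80) and PTGS1 and HPGD (r = -0.78), while PTGS2 and PLA2G4A ran together (r = 0.77). The genes whose 12 group means were most like those of PTGS2, among 13518 genes with a mean log2 CPM of at least 1, were PMEPA1 (r = 0.98), LURAP1L (0.97), GLIS3 (0.95), SH3RF2 (0.94) and OCLN (0.93). None of these 5 was called at any time point, but 2 rose during exposure by less than 2-fold with an adjusted p under 0.05. They were PMEPA1 at days 6 and 21 (adjusted p = 0.0322 and 0.00314) and SH3RF2 at days 6, 15 and 21 (0.0305, 0.0348 and 0.0120). LURAP1L, GLIS3 and OCLN did not reach that adjusted p at any time. For HPGD they were SEMA3A (r = 0.98), DCDC2 (0.98), LMO7 (0.97), ZNF608 (0.97) and SERTAD4 (0.97), among 13517 genes. ZNF608 fell at all 6 time points, by 3.64 on the log2 scale at day 21. DCDC2 was called lower at day 21 of exposure and at days 6, 15 and 30 after withdrawal. LMO7 was called lower at days 6 and 21 of exposure and days 6 and 15 after withdrawal. SEMA3A was called lower at day 21 of exposure and day 6 after withdrawal, and SERTAD4 was not called at any time.

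Around the 9 genes, 46 further genes of eicosanoid metabolism in 5 lists were examined, of which 26 could be tested. Of these, 3 rose and 1 fell at day 6 (2.77% of all genes called), 1 rose and 2 fell at day 15 (4.24%), and 2 rose and 3 fell at day 21 (4.26%). After withdrawal 2 fell at day 6 (1.8%) and none was called at days 15 (0.954%) and 30 (0.897%). Of the genes never called, only the transporters ABCC4 and SLCO3A1 had an adjusted p under 0.05 at any time, with changes under 2-fold. ABCC4 was lower at every time but day 15 after withdrawal (adjusted p = 0.0494 at day 30 after withdrawal). SLCO3A1 was higher at day 21 and at days 6 and 30 after withdrawal (0.0221, 0.00874 and 0.0261). None of the 4 tested phospholipases and neither of the 2 tested prostanoid receptors, PTGIR and TBXA2R, was called at any time point. Genes too low to test included PTGER1 and PTGER3, the remaining PGE2 receptors, with at most 3 and 10 counts in a library, the prostaglandin D synthases PTGDS and HPGDS with at most 1, and the uptake transporter SLCO2A1 with 0 in all libraries.

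Among the terminal enzymes, AKR1B1, an aldo-keto reductase with prostaglandin F synthase activity, rose at day 6 from 1204 to 3380 CPM (log2 fold change 1.49 ± 0.34, adjusted p = 0.00726). AKR1C3, another aldo-keto reductase that makes PGF2α, fell instead, by 1.57 at day 15 and 1.44 at day 21 on the log2 scale, and by 1.11 at day 6 after withdrawal (169 against 365 CPM). Reads of AKR1C3 may be split with its close paralogs of the AKR1C cluster. CBR3, a carbonyl reductase, rose at day 6 from 4.43 to 9.18 CPM (1.04 ± 0.24), with 71.1% of its exons overlapped by CBR3-AS1 on the opposite strand. CYP4F3, an omega-hydroxylase of leukotriene B4 and related lipids, fell at all 3 times of exposure (-1.63, -1.84 and -1.67) and at day 6 after withdrawal (-1.22). Its paralog CYP4F2 fell at day 21 (-1.85 ± 0.48, from 1.77 to 0.477 CPM), and reads of the pair may be split between them. In the lipoxygenase arm, ALOX5AP, the activating protein of 5-lipoxygenase, rose at days 15 and 21 (2.58 ± 0.62 and 2.36 ± 0.53, from 0.409 to 2.15 CPM at day 21). These levels came from at most 50 counts in a library, and ALOX5 itself had at most 1 count in any library. ALOXE3, an epidermal-type lipoxygenase, rose at days 6 and 21 (1.60 ± 0.45 and 1.44 ± 0.43).

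**Figure D4:**
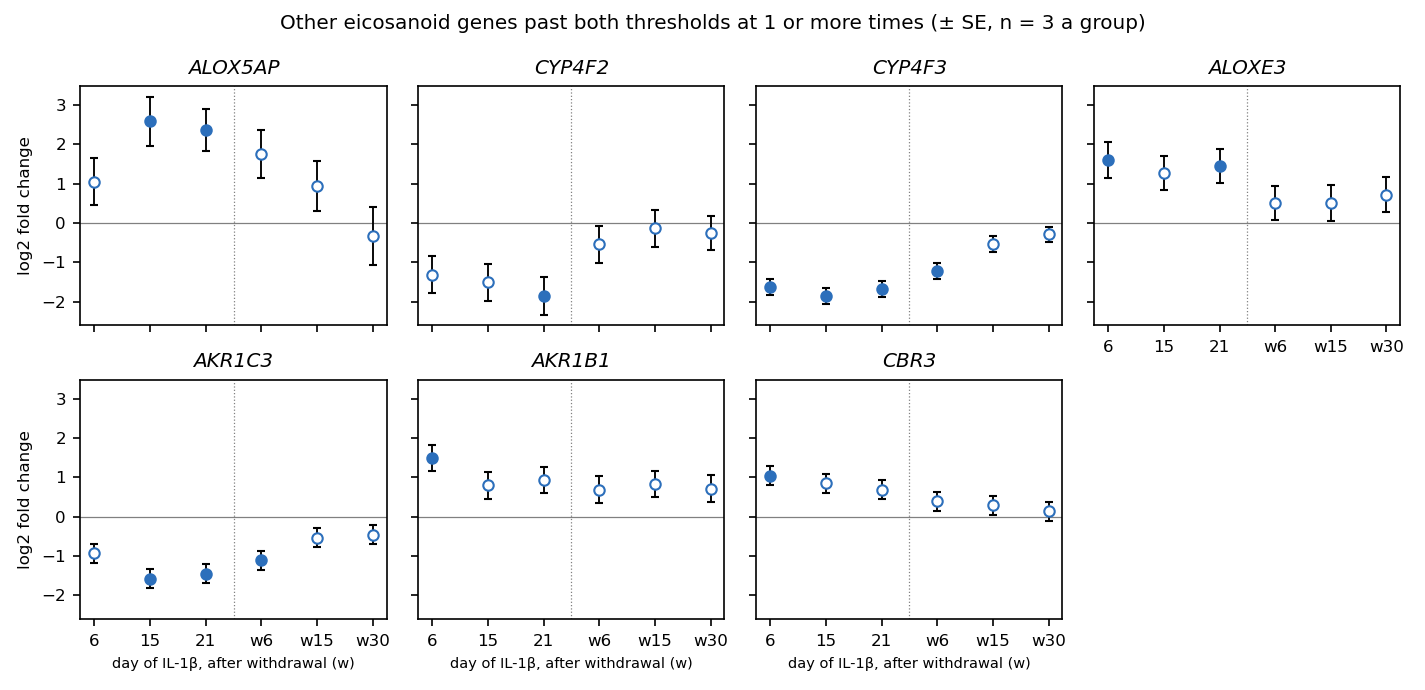
Log2 fold change of IL-1β-exposed over untreated control cells, with standard errors and 3 libraries a group, for the 7 other eicosanoid genes called at 1 or more time points (filled points, past both thresholds; w, days after withdrawal). ALOX5AP reaches 2.58 at day 15, CYP4F3 lies at -1.84 at day 15 and is called up to day 6 after withdrawal, and no point of the 7 genes is filled at days 15 and 30 after withdrawal.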

How the data were processed

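The authors prepared stranded mRNA libraries from A549 cells, sequenced single-end reads and deposited raw counts per Ensembl gene for each of 36 libraries. The submitters' processing notes name bcl2fastq 2.17, TopHat2 2.0.14, Bowtie2 2.2.5 and HTSeq 0.6.1 with GRCh37. The counting strand setting and annotation release are not given in the sources used here. Summary lines of HTSeq were left out of library sizes.

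Groups came from the labels (12 groups, 3 replicates each). Counts were analysed with edgeR 4.0.16 in R 4.3.3 (limma 3.58.1). The function filterByExpr kept 19180 of 39471 genes with any count, TMM scaled the libraries, and 1 quasi-likelihood model of the 12 group means was fitted, with 24 residual degrees of freedom. P-values were adjusted by Benjamini-Hochberg over all genes tested, with calls at an adjusted p under 0.05 and a fold change over 2. CPM used TMM-scaled library sizes and log2 CPM a prior count of 2. Scripts were tested on simulated data. Plots used Python 3.11.15 with matplotlib 3.10.9.

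Symbols and positions of 55665 of the 63677 genes came from GENCODE v44lift37, which matched all 9 members and 75 of 76 listed symbols. Promoter sequences came from RefSeq and were located in GRCh37. All 9 members are described at all time points. Of the wider lists, those called at any of the 6 times are named (7 genes). ABCC4 and SLCO3A1 are named for an adjusted p under 0.05 with changes under 2-fold. The 5 genes most like PTGS2 and HPGD are named by Pearson r. The members and gene lists were chosen with earlier results of these data known.

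Alternatives were DESeq2 1.42.0 size factors and its Wald test, scaling by total counts alone, dropping the low-count filter, at least 10 counts in every sample, a separate fit of each time point, the replicate number as a block, and leaving out each replicate. Those with the mitochondrial share (over 10% of counts) or without single libraries were chosen after seeing the data. Replicate numbers come from the labels. Deviations of same-numbered libraries from their group means correlated above 0.1 in 14 of 18 pairs (lowest r -0.34), and in all 3 pairs at day 21 of exposure (lowest 0.20) and day 30 after withdrawal (lowest 0.31), so the blocked value is given beside those results where it changed a call.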

Additional observations from a re-analysis of the deposited data

Results flagged for a closer look

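The PTGS2 response differed between 2 time points by a test of the difference itself. The response at day 30 after withdrawal minus that at day 21 of exposure was -4.77 on the log2 scale (SE 1.05, edgeR quasi-likelihood, adjusted p = 0.0209), from a log2 fold change of 1.71 to one of -3.06. In all 3 numbered pairs the exposed library was above its control at day 21, and in none of 3 at day 30 after withdrawal. The later value rests on 8 counts in the 3 exposed libraries. The difference was -4.82 without the high-mitochondrial libraries (adjusted p = 0.0376) and -4.78 with that share as a covariate (adjusted p = 0.0178).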

How the results depend on the processing

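Counts of the 9 genes called moved by 1 or 2 genes. At day 6 of exposure (2 called), 1 was called with total counts only, with at least 10 counts in every sample, and with the mitochondrial share as a covariate, and 0 to 1 when a replicate number was left out. At day 15 (1 called), 0 were called with total counts, the 10-count filter, separate fits or without the high-mitochondrial libraries, and 0 to 1 without a replicate. At day 21 (1 called), 2 were called with separate fits and without the high-mitochondrial libraries, and 0 to 2 without a replicate. At day 6 after withdrawal (1 called), 2 were called with DESeq2's size factors and its Wald test, 0 with separate fits, and 0 to 1 without a replicate. At day 15 after withdrawal (0 called), DESeq2's Wald test called 1, and 0 were called with any replicate number left out. At day 30 after withdrawal (2 called), 1 was called with total counts and without the high-mitochondrial libraries, 0 with separate fits, and 0 to 2 without a replicate. The difference of responses between day 30 after withdrawal and day 21 (1 called) gave 0 with the 10-count filter, which removes PTGS2, and 0 to 1 without a replicate. The 10-count filter removes PTGS2, whose lowest count was 1, so its calls at days 6 and 15 of exposure could not be kept. Separate fits and left-out replicates use fewer libraries, and other causes were not tested.

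In the fit blocked on replicate number, PTGS2 made the counts 2 at day 21 and 3 at day 30 after withdrawal, and PTGS1 made them 2 and 1 at days 6 and 15 after withdrawal (1.02, adjusted p = 0.0341 at day 6, and 1.05, adjusted p = 0.0425 at day 15). At these 2 times the same-numbered libraries correlated at -0.11 (replicate 1, day 6) and -0.34 (replicate 3, day 15). In both pairs the control was a high-mitochondrial library (19.2% and 22.4%) and the exposed library was not (6.13% and 6.95%). Whether the numbers pair these libraries was not tested. Of 36 libraries, 30 correlated best with their own number. The block ended no call.

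Signs turned only for values that were not called. PTGES at day 6 after withdrawal was 0.087 with total counts. Without the high-mitochondrial libraries, PTGES2 was -0.0048 and 0.0080 at days 6 and 15 of exposure and -0.090, -0.038 and -0.060 at the successive times after withdrawal, PTGES3 was -0.049 and 0.067 at days 15 and 30 after withdrawal, PLA2G4A was -0.41 at day 15 and PTGER4 was -0.12 at day 6 after withdrawal. In that fit the values at days 6 and 15 after withdrawal rest on control replicate 3 alone and control replicate 1 alone. With the mitochondrial covariate, PTGES2 was -0.099 and 0.25 at days 6 and 21, and, after withdrawal, -0.18 at day 6 and -0.12 at day 15. Its day 21 value was 0.0074 with DESeq2's size factors, 0.0075 with its Wald test and 0.0040 without a filter. PLA2G4A was -0.0052 at day 15 with total counts. Leaving out a replicate number in turn, the ranges that crossed 0 were -0.062 to 0.026 for PTGES at day 6 after withdrawal; for PTGES2, -0.048 to 0.051 at day 21, and -0.12 to 0.18, -0.22 to 0.27 and -0.072 to 0.30 after withdrawal; for PTGES3, -0.014 to 0.025, -0.15 to 0.12 and -0.34 to 0.056 after withdrawal. They were -0.33 to 0.11 for PLA2G4A at day 6, -0.78 to 0.10 for PTGER2 and -0.15 to 0.41 for PTGER4 at day 15, and -0.54 to 0.18 for PTGS2 between the last and the first untreated cells. Depth limits PTGS2 after withdrawal, with 1 to 11 counts in each exposed library.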
